A study of Mus musculus with 4 samples.

Results

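Wnt signalling was read through 46 genes of the array, taken by symbol from the families of Wnt ligands, Frizzled receptors, co-receptors, secreted antagonists, Axin scaffolds and TCF/LEF factors. The naming rule was Wnt, Fzd, Sfrp or Dkk followed by a number, with Lrp5, Lrp6, Ror1, Ror2, Axin1, Axin2, Lef1, Tcf7, Tcf7l1 and Tcf7l2, and it allows 47 names in the mouse. Of these 47, Tcf7 was not analysed here. The 46 were drawn from 18193 named genes, with the probe set brightest on average over the 4 arrays standing for the gene, and comprised 19 ligands, 10 Frizzled receptors, 4 co-receptors, 8 antagonists, 2 Axin scaffolds and 3 TCF/LEF factors. Together they had 93 probe sets, and 30 of them had more than 1.

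The material was mouse embryonic fibroblasts (MEFs), connective tissue cells of the embryo, in the course of reprogramming toward a pluripotent state. Cells were fixed, made permeable and stained inside for the reprogramming factors Oct4 and Klf4 and for EpCAM, an adhesion protein of epithelial cells, and were sorted into 4 fractions with 1 array each. Cells without Oct4 formed the Oct4-negative fraction, and cells with Oct4 but without Klf4 the Oct4+Klf4-negative fraction. Cells with both factors were divided by EpCAM, into Oct4+Klf4+EpCAM-negative and, where EpCAM was present, Oct4+Klf4+EpCAM+. The labels give no strain, age, day of sorting, introduced factors or way of delivery, no Klf4 gate for the Oct4-negative cells and no EpCAM gate for the first pair of fractions, and they do not say whether the fractions came from the same culture.

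In the canonical Wnt pathway a secreted, lipid-modified Wnt protein binds a Frizzled receptor together with Lrp5 or Lrp6, the Axin complex that marks beta-catenin for destruction is then held at the membrane, and beta-catenin accumulates and works with TCF/LEF proteins on DNA. Other Wnts, Wnt5a best known among them, act through Frizzled with Ror2 on cell shape and movement without beta-catenin. The sFRP proteins bind Wnts outside the cell, and the Dickkopf proteins Dkk1, Dkk2 and Dkk4 block Lrp5 and Lrp6. In mouse pluripotent cells beta-catenin relieves repression of pluripotency genes by Tcf7l1, the TCF factor that acts mainly as a repressor.

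All values are log2 levels from robust multi-array average (RMA) processing, and each is that of 1 array. With 1 array per fraction there was no replicate, no test and no p-value, and precision is limited by there being so few arrays. The floor for a measured gene was set at 4.53, which is the median of all values, and 1 array at or above it sufficed. A gene was called higher or lower between 2 arrays where the difference was 2-fold or more and the larger level was no lower than the floor. Readings at or below 2.94, the ceiling over 27 bacterial controls with low signal, were taken as background, and a fold against such a reading is given as "at least". Where a gene has several probe sets at the floor, the SD between them gauges measurement scatter, though it holds no variation between cultures or sorts. Its median over such genes was 0.17 for the log2 difference at the Oct4 step (Oct4-negative to Oct4+Klf4-negative), 0.17 at the Klf4 step (to Oct4+Klf4+EpCAM-negative), 0.12 at the EpCAM step (to Oct4+Klf4+EpCAM+) and 0.18 between the ends. The comparisons share arrays, since each step ends where the next begins. Levels of different genes were not set against each other, because each probe set has its own response.

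The transcripts of the sorted proteins followed the gates in the probe sets used. Pou5f1, which encodes Oct4, was at 7.59 on the Oct4-negative array and between 11.48 and 11.70 on the others. Klf4 was at 7.32 and 6.24 on the first pair of arrays and at 10.20 and 10.60 on the Klf4-positive pair, and Epcam was at 4.63, 5.20, 6.54 and 9.52 in gate order. A dimmer Klf4 probe set went the opposite way at the Klf4 gate, from 5.69 to 2.67. The control probe sets of Gapdh at the 3′ and 5′ ends differed by 1.04, 1.30, 1.04 and 0.97 in the same order, and those of Actb by at most 0.065 in size.

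More Wnt genes were called at the Klf4 gate than at either of the other gates, as was also so over all named genes. Of the 46, 8 were lower in the Oct4+Klf4+EpCAM-negative array than in the Oct4+Klf4-negative array (17.4%, against 4.32% of all named genes and 6.88% of the 11429 reaching the floor) and 3 were higher (6.52%, against 5.3% and 8.44%). The lower ones were the ligand genes Wnt5a and Wnt9a, the receptor genes Fzd1, Fzd2 and Fzd8, the antagonist genes Sfrp2 and Sfrp4, and Axin2. The higher ones were Wnt5b, Sfrp1 and Lef1. At the Oct4 step 2 were higher, Sfrp1 and Sfrp4 (4.35%, against 2.25% and 3.59%), and 1 was lower, Dkk3 (2.17%, against 3.04% and 4.84%), which is near the shares over all genes. At the EpCAM step none was higher (against 1.95% and 3.11%) and 2 were lower, Fzd2 and Tcf7l1 (4.35%, against 1.12% and 1.78%). Between the ends of the series 9 were lower (19.6%, against 6.77% and 10.8%) and 4 higher (8.70%, against 7.46% and 11.9%).

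**Figure D1:**
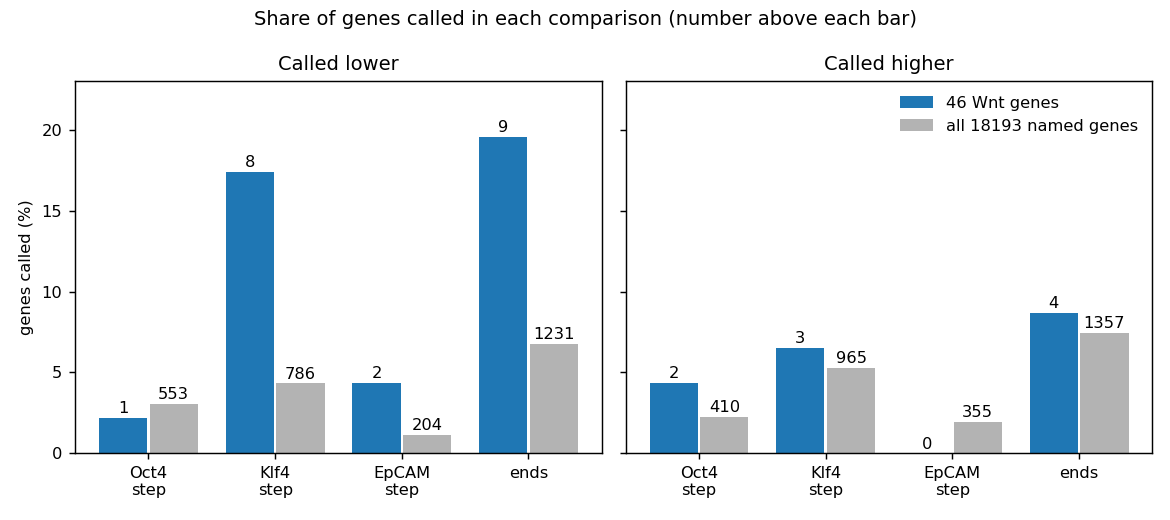
Percent of genes called lower (left) and higher (right) in each comparison, for the 46 Wnt genes (blue) and all 18193 named genes (grey), with the number of genes above each bar. The lower calls at the Klf4 step stand at 17.4% of the Wnt genes against 4.32% of all genes, while the higher calls lie closer together, at 6.52% and 5.3%.

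The median over all 46 genes, 19 of which stayed below the floor, was 0.012 at the Oct4 step, -0.057 at the Klf4 step, -0.0039 at the EpCAM step and -0.075 between the ends, beside 0.00, 0.014, 0.0045 and 0.026 over all named genes. Over the 27 reaching the floor it was -0.32 at the Klf4 step, beside 0.035 over all genes that reach it. At the Klf4 step 27 of the 46 lay below 0 and 19 above. The calls came from 15 genes, of which 3 were called in 1 comparison, 10 in 2 and 2, Sfrp1 and Fzd2, in 3. Another 12 were measured and called nowhere. For the 19 below the floor on every array a call was not possible. In the called genes the distance from the lowest to the highest of the 4 levels ran from 1.46 in Fzd8 to 5.74 in Sfrp2, with a median of 2.25.

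**Figure D2:**
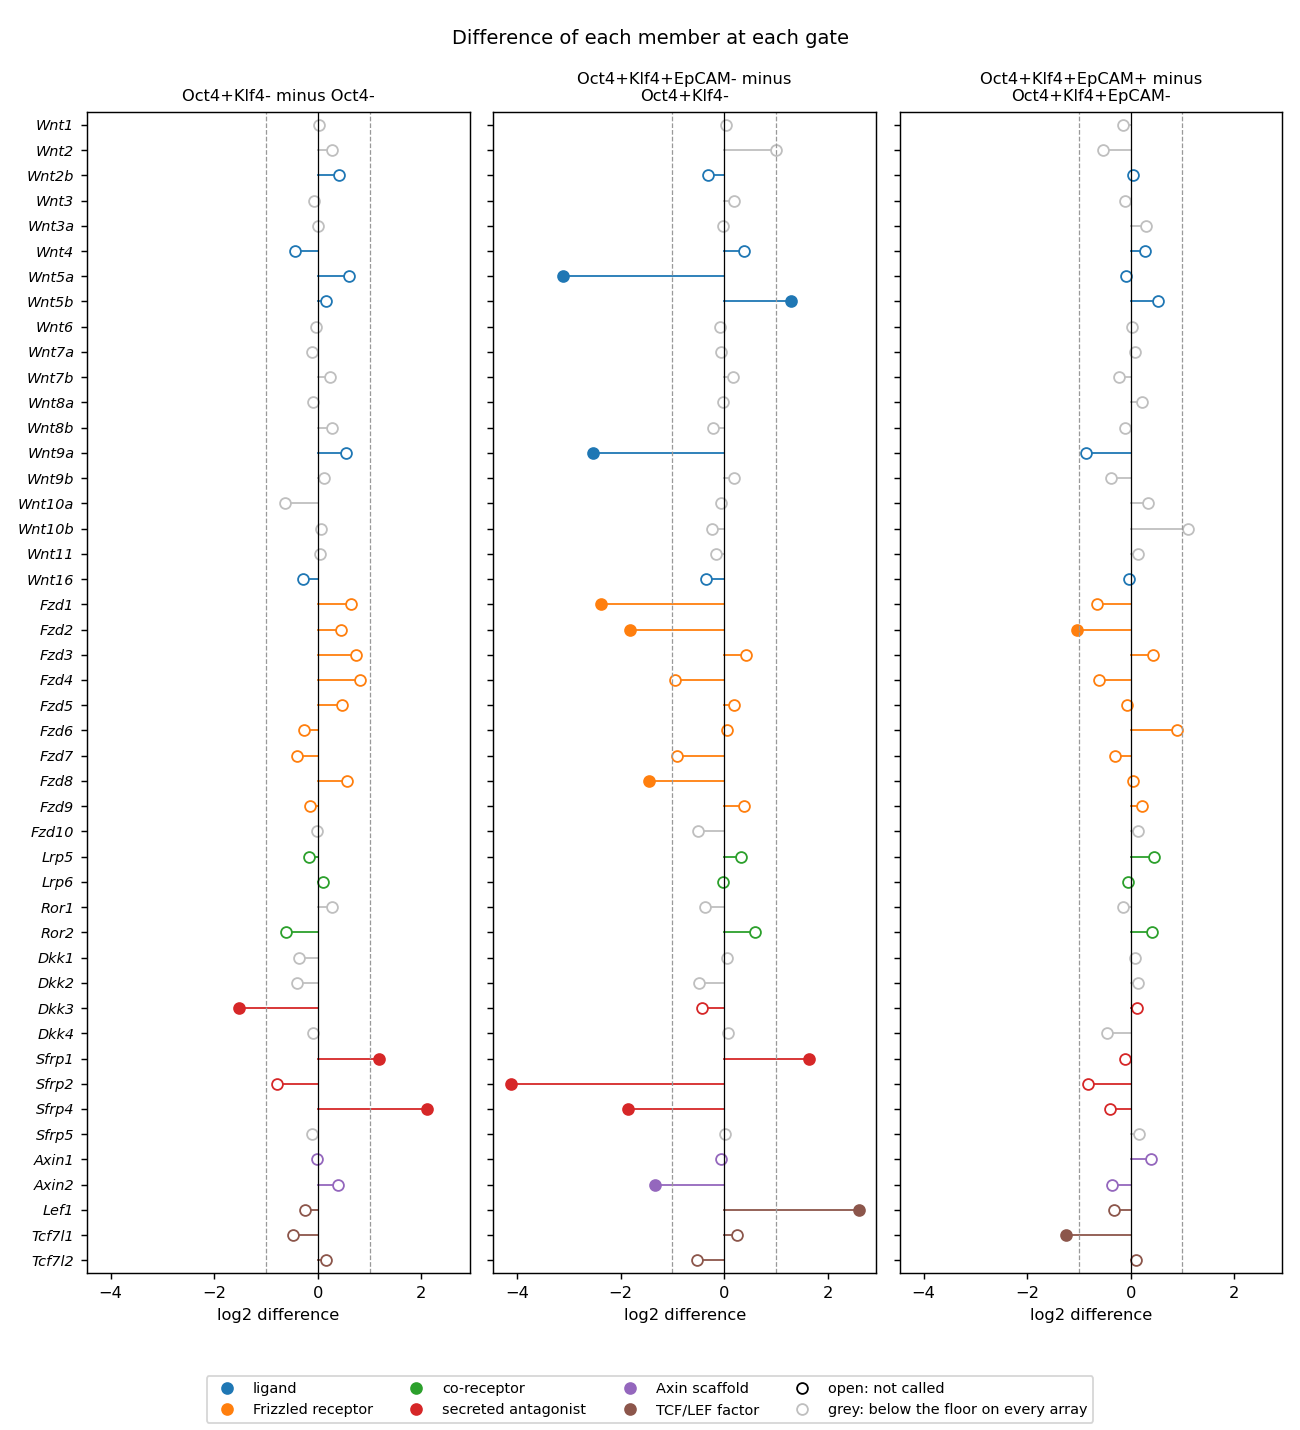
Log2 difference of each of the 46 genes at the Oct4 step (left), Klf4 step (middle) and EpCAM step (right), coloured by role. Filled points are called genes, grey points are genes below the floor on every array, and dashed lines mark 2-fold. The middle panel holds 11 filled points, with Sfrp2 at -4.12 and Lef1 at 2.59 as its extremes, and the outer panels hold 3 and 2.

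Markers of cell types moved across the same gates. Over all named genes, 4.32% were lower and 5.3% higher at the Klf4 step, 3.04% and 2.25% at the Oct4 step, and 1.12% and 1.95% at the EpCAM step. Of 13 fibroblast markers on the array, 9 were lower and 2 higher, Dcn and S100a4, at the Klf4 step. The mean level of the 13 was 9.05, 8.67, 7.15 and 6.21 in gate order, while Dcn read 6.76, 8.62, 10.97 and 10.98. At the EpCAM step 5 were lower and none higher, and at the Oct4 step 4 were lower and 3 higher. Of 14 epithelial and keratinocyte markers 8 were higher and none lower at the Klf4 step and 11 and none at the EpCAM step, with mean levels of 4.33, 4.37, 6.04 and 7.95, and Trp63 below the floor throughout. Epcam, itself a gene of the sort, is 1 of the 14 and is among the higher ones at both steps. At the Oct4 step Krt18 was lower and none of the 14 was higher. Neural markers (12 genes) had mean levels of 4.75, 6.49, 6.55 and 6.11, with 7 higher and 1 lower at the Oct4 step. At the Klf4 step, where that mean hardly differed, 4 were higher (Tubb3, Stmn2, Sox1 and Fabp7) and 4 lower (Nefm, Nefl, Gap43 and Map2). Pluripotency markers (12 genes, 5 of which reached the floor) had mean levels of 3.46, 3.68, 4.78 and 5.21. At the Klf4 step 3 of them were higher, Fgf4, Sall4 and Lin28a, and none lower, with a list median of 0.19. At the EpCAM step 2 were higher, Lin28a and Sall4, and none lower, with a list median of 0.19. The rise of the mean thus rests on a few genes. Nanog and Tdgf1 lay at or below the background ceiling on every array. Sox2 read 3.15 on the Oct4-negative array and lay in the background on the others. Pou5f1, itself a gene of the sort, is 1 of the 12 and went from 7.59 to 11.48 at the Oct4 step. No other marker of the list was called there, and the list median was -0.046. The higher mean at that step is thus not independent of the Oct4 gate. Of 8 macrophage and leukocyte markers, 3 of which reached the floor, 2 were higher and none lower at the Klf4 step, with mean levels of 3.65, 3.35, 4.36 and 4.28. At the Oct4 step 2 were lower, Cd68 and Cd14, and none higher. Laptm5 read 3.81, 4.69, 9.50 and 8.38, and Cd68 7.76, 5.95, 6.32 and 6.48, while Adgre1 and Itgam lay in the background on every array. Of 8 endothelial markers, 3 were higher and none lower at the Klf4 step, with mean levels of 3.02, 3.37, 4.47 and 4.68. Tek read 3.33, 7.49, 9.22 and 8.74, and Cldn5 3.21, 3.59, 6.81 and 7.37, while Kdr and Emcn lay in the background on every array. The part of these shifts in the Wnt differences was not tested. In RNA from a sorted fraction, fewer cells of a type and less RNA per cell cannot be told apart.

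Among the ligands, 6 of 19 reached the floor, and 3 of those were called. Wnt5a, the ligand best known for signalling without beta-catenin, had levels of 5.58, 6.19, 3.09 and 2.997 in gate order. Both Klf4-positive arrays thus read close to background, and the Oct4+Klf4+EpCAM-negative level was 8.61-fold below the Oct4+Klf4-negative one (log2 difference -3.11). A second probe set reaching the floor read 5.48, 5.06, 2.30 and 3.44, so it too was lower past the Klf4 gate. It lay in the background on the Oct4+Klf4+EpCAM-negative array alone. This second one went the other way at the Oct4 step (-0.42 against 0.61) and at the EpCAM step (1.15 against -0.090). With its 4 probe sets averaged, Wnt5a did not reach the floor and was not called.

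Wnt9a, a ligand of developing joints and limbs, had levels of 6.78, 7.34, 4.81 and 3.94. It was 5.77-fold lower at the Klf4 gate, a log2 difference of -2.53, and 7.18-fold lower at the end of the series than at its start. Its other probe set stayed between 2.85 and 3.04, close to the background ceiling, and the mean of both gave -1.24 at the Klf4 gate.

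Wnt5b, the closest relative of Wnt5a, ran the opposite way, with levels of 3.87, 4.03, 5.33 and 5.86. The Klf4-positive arrays were the only ones of the 4 above the floor, 2.46-fold higher at the gate and 3.95-fold higher at the end of the series than at its start. That reading comes from a probe set whose identifier marks possible cross-hybridization (_x_at). The other probe set, whose identifier marks several transcripts of the gene, read 3.23, 3.22, 3.42 and 3.54, and the mean of both gave 0.75 at the Klf4 gate, under 2-fold.

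The other measured ligands were flat by the size rule. Wnt2b read 5.03, 5.45, 5.13 and 5.18, Wnt4, a ligand of kidney and gonad development, 4.72, 4.28, 4.66 and 4.94, and Wnt16 4.77, 4.47, 4.12 and 4.09. The 13 ligands below the floor were Wnt1, Wnt2, Wnt3, Wnt3a, Wnt6, Wnt7a, Wnt7b, Wnt8a, Wnt8b, Wnt9b, Wnt10a, Wnt10b and Wnt11, with levels between 1.98 and 4.51. Among them were Wnt3a and Wnt1, the ligands best known for activating beta-catenin. Wnt10b, named here after its values were seen, read 3.91 on the Oct4+Klf4+EpCAM+ array against 2.81 on the EpCAM-negative one, at least 1.96-fold against the background ceiling, with both readings below the floor.

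The Frizzled genes, which encode the seven-pass receptors, separated into members that were lower past the Klf4 gate and members that were not. Of 10, 9 reached the floor, and 3 were lower and none higher at the Klf4 step (30.0% lower, against 4.32% of all named genes and 6.88% of those reaching the floor). The median difference over all 10 was -0.71. At the Oct4 step that median was 0.46, and none of the 10 was called.

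Fzd1 had levels of 6.71, 7.35, 4.97 and 4.33. It was highest on the Oct4+Klf4-negative array and 5.22-fold lower past the Klf4 gate (log2 difference -2.38), and its level on the Oct4+Klf4+EpCAM+ array lay below the floor. A dimmer probe set, below the floor, read 3.56, 4.23, 3.48 and 3.08 and moved the same way at each gate, and the mean of both gave -1.57 at the Klf4 gate.

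Fzd2, which can receive Wnt5a, had levels of 7.61, 8.06, 6.24 and 5.21. It was the 1 gene of the 46 called lower at 2 gates in succession, 3.53-fold at the Klf4 step and 2.04-fold at the EpCAM step. All 3 of its probe sets reached the floor and were lower at both gates, by log2 differences of -1.82 to -1.33 and of -1.03 to -0.68. The call at the EpCAM step was lost with the probe sets averaged (-0.82).

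Fzd8 had levels of 5.67, 6.25, 4.79 and 4.82 and was 2.75-fold lower at the Klf4 gate, with no further difference at the EpCAM gate (0.037). Its difference was -0.95 with both probe sets averaged, under 2-fold. Fzd7, a Frizzled prominent in pluripotent stem cells, read 7.92, 7.52, 6.60 and 6.29. Each step was downward and none reached 2-fold, but the sum did, 3.09-fold between the ends. Fzd4, the receptor of the retinal vessel ligand norrin, had levels of 5.72, 6.53, 5.59 and 4.97 and missed the size rule at the Klf4 gate (-0.95). Its other 2 probe sets, below the floor, read 4.34 and 4.14 before that gate and lay in the background past it. With all 3 averaged, Fzd4 was called lower at the Klf4 gate.

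Fzd3, a Frizzled of planar polarity and axon guidance, was the 1 receptor called higher. Its levels were 5.94, 6.68, 7.11 and 7.54, so that each array lay above the one before, and the last array was 3.05-fold above the Oct4-negative one. All 6 of its probe sets reached the floor and were higher between the ends, by 1.19 to 1.71, at the Oct4 step, by 0.70 to 1.26, and at the Klf4 step, by 0.078 to 0.51. At the EpCAM step 4 of the 6 were higher, within -0.088 to 0.43. Together with Fzd7 and Sfrp2 it was 1 of 3 measured Wnt genes of 27 (11.1%) whose 3 steps ran one way with each step larger than the probe set scatter, beside 908 of 11429 measured genes (7.94%).

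The remaining measured receptors stayed within 2-fold. Fzd5 read 7.21, 7.68, 7.87 and 7.81, Fzd9 lay between 4.71 and 5.31, and Fzd6, a planar polarity Frizzled of skin, 6.87, 6.59, 6.64 and 7.54. Fzd6 was 1.86-fold higher at the EpCAM gate, where both probe sets reaching the floor gave 0.71 and 0.90. Fzd10 lay in the background on every array.

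**Figure D3:**
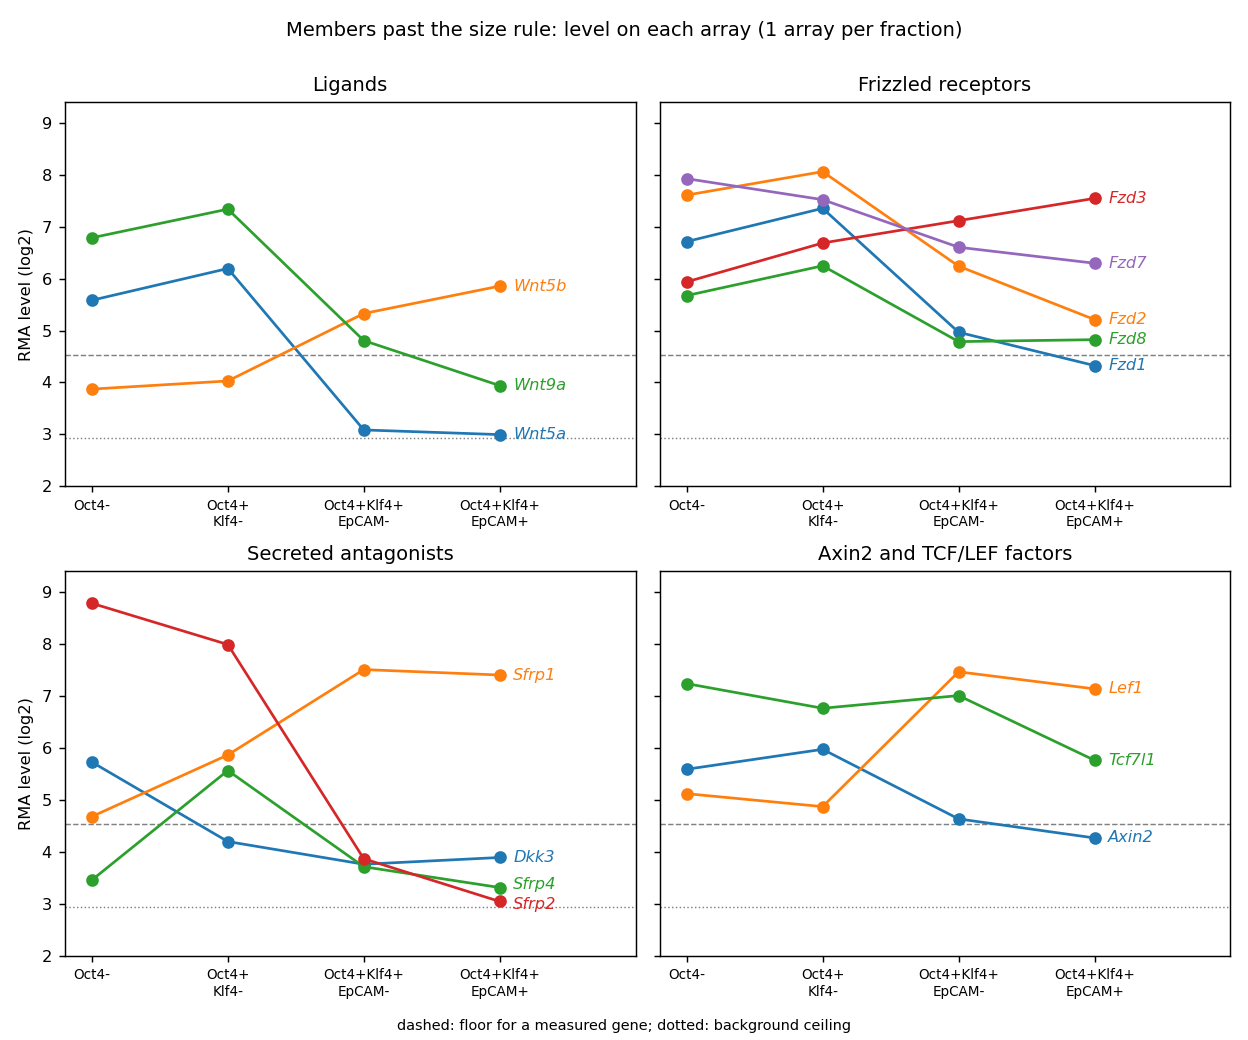
Level on each of the 4 arrays, in gate order, of the 15 genes called in any comparison, in log2 units with 1 array per fraction and no error bars. Dashed and dotted lines are the floor (4.53) and the background ceiling (2.94). Wnt5a, Wnt9a, Fzd1, Fzd2, Sfrp2 and Axin2 drop at the Klf4 gate, where Wnt5b, Sfrp1 and Lef1 climb, and Sfrp4 stands above the floor on the Oct4+Klf4-negative array alone.

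None of the 4 co-receptors was called. Lrp6, which carries the canonical signal with Frizzled, read 9.26, 9.36, 9.34 and 9.28, and its second probe set 8.13, 7.62, 8.09 and 8.28. The second thus differed by -0.51 at the Oct4 step and 0.47 at the Klf4 step, against 0.099 and -0.020 in the brighter one. Lrp5 read 7.38, 7.20, 7.53 and 7.98. Ror2, a receptor kinase for Wnt5a, read 6.88, 6.27, 6.88 and 7.29. Its other probe set read 7.26, 5.95, 6.20 and 6.57, a difference of -1.31 at the Oct4 step against -0.61 in the brighter one, and the 2 disagreed in sign between the ends, with 0.41 and -0.69. Ror1 stayed below the floor.

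The largest difference among the 46 was in a secreted antagonist gene. Sfrp2, an sFRP abundant in fibroblasts, had levels of 8.78, 7.99, 3.87 and 3.04. The first pair of arrays lay far above the second pair, by 17.4-fold at the Klf4 gate (log2 difference -4.12), and the ends differed by 53.3-fold. Both Klf4-positive levels lay below the floor, and the last was close to the background ceiling, so the size of these folds is uncertain. The Sfrp2 reading rests on 1 probe set. Sfrp1, a close relative, went the opposite way, with levels of 4.68, 5.86, 7.51 and 7.40. It was 2.27-fold higher at the Oct4 step, 3.12-fold higher at the Klf4 step and flat at the EpCAM step (-0.10), and 6.60-fold higher between the ends. The 4 of its 5 probe sets that reached the floor were higher in those 3 comparisons, by 1.64 to 2.87 at the Klf4 step. With all 5 averaged the Oct4 step was under 2-fold (0.81).

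Sfrp4 was high on a single array, with levels of 3.46, 5.56, 3.71 and 3.31. It was 4.31-fold higher in the Oct4+Klf4-negative array than in the Oct4-negative array and 3.61-fold lower again past the Klf4 gate, on 1 probe set. Dkk3, a Dickkopf relative not known to block Lrp5 and Lrp6, read 5.73, 4.20, 3.76 and 3.89. It was above the floor on the Oct4-negative array alone, 2.89-fold above the Oct4+Klf4-negative level and 3.57-fold above that of the Oct4+Klf4+EpCAM+ array. Sfrp5 and the Lrp-blocking genes Dkk1, Dkk2 and Dkk4 stayed below the floor.

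**Figure D4:**
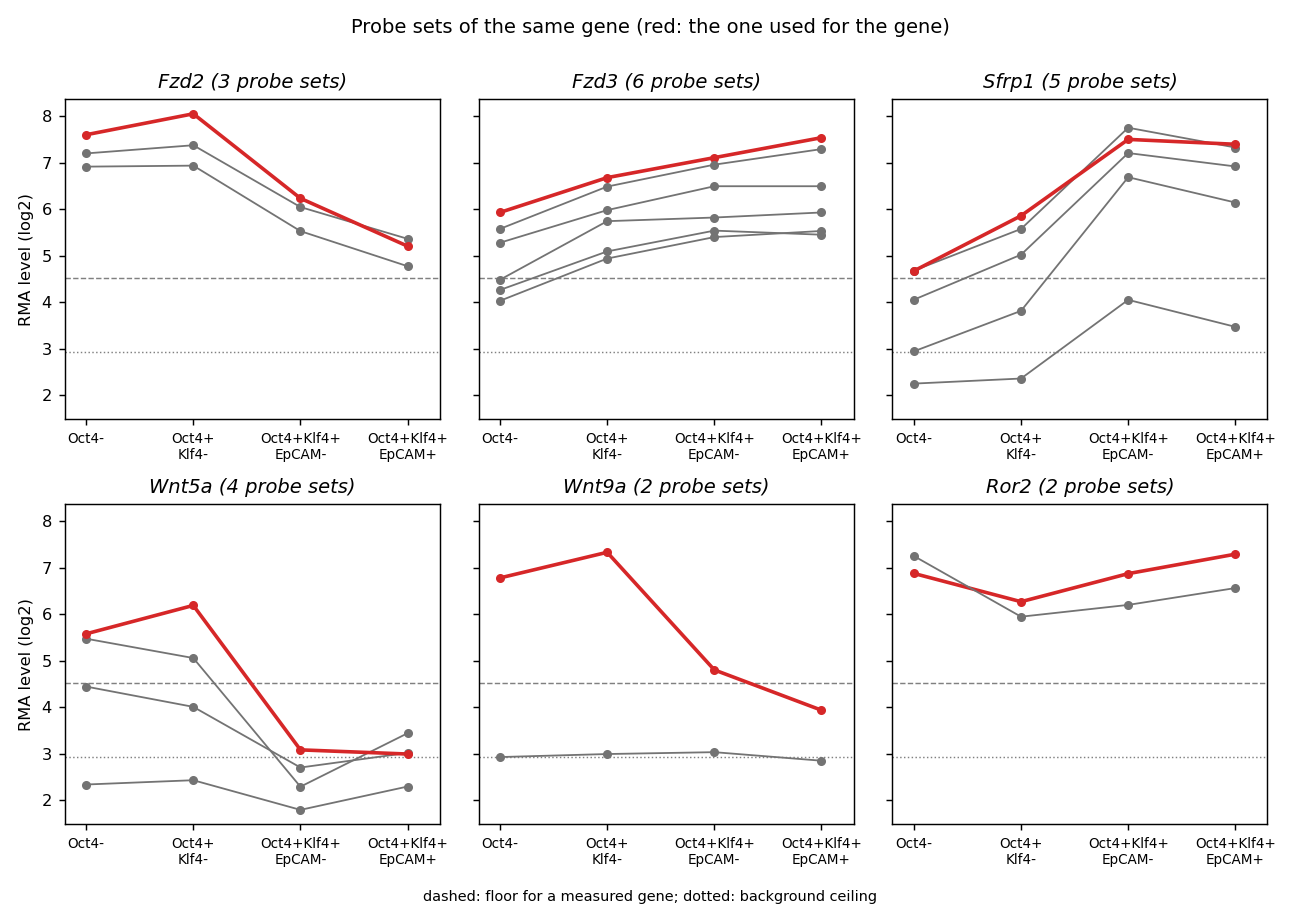
Levels of every probe set of 6 genes on the 4 arrays in gate order (log2), the one used for the gene in red and the others in grey, with the floor (dashed) and the background ceiling (dotted). The 5 probe sets of Sfrp1 and the 3 of Fzd2 run the same way at each step, by amounts that differ (1.64 to 2.87 in Sfrp1 at the Klf4 step). The 6 of Fzd3 do so at the Oct4 and Klf4 steps. Those of Wnt5a differ in direction at the Oct4 and EpCAM steps, and the second one of Wnt9a stays between 2.85 and 3.04, next to the background ceiling.

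Of the 2 Axin genes, Axin1, the constitutive scaffold, stayed between 6.83 and 7.22. Axin2, which is itself induced by beta-catenin and serves as a common readout of the pathway, had levels of 5.59, 5.97, 4.63 and 4.27. It was 2.53-fold lower at the Klf4 gate (log2 difference -1.34), and its level on the Oct4+Klf4+EpCAM+ array lay below the floor. A second probe set below the floor read 3.74, 4.31, 3.88 and 3.07, and the mean of both gave -0.88 at the Klf4 gate, under 2-fold.

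The 3 TCF/LEF genes each had a pattern of their own. Lef1, which encodes a beta-catenin partner and is itself a common Wnt target, had levels of 5.12, 4.87, 7.46 and 7.13, so both Klf4-positive arrays lay above both others, by 6.04-fold at the gate (log2 difference 2.59). A dimmer probe set below the floor read 2.36, 2.38, 4.26 and 3.89. Tcf7l1, the repressor, read 7.24, 6.76, 7.01 and 5.76, and stood apart on the Oct4+Klf4+EpCAM+ array, 2.37-fold below the EpCAM-negative one (log2 difference -1.24). Its second probe set gave -0.73 at that gate, and the mean of both -0.98, just under 2-fold. Tcf7l2 was flat, between 8.53 and 9.05.

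Promoters are printed for 4 called genes, those whose window lies outside the annotated gene, to set Lef1 and Tcf7l1, which differed at different gates, beside the receptor genes Fzd1 and Fzd7. Each sequence is the 250 bases before a RefSeq transcript start on GRCm38.p6, 5′ to 3′ on the gene's strand, and capitals mark matches to the letters searched. Lef1 lies at chr3:131110047-131110296 (plus strand), Fzd1 at chr5:4758217-4758466 (minus strand), Fzd7 at chr1:59481897-59482146 (plus strand) and Tcf7l1 at chr6:72789046-72789295 (minus strand).
Lef1: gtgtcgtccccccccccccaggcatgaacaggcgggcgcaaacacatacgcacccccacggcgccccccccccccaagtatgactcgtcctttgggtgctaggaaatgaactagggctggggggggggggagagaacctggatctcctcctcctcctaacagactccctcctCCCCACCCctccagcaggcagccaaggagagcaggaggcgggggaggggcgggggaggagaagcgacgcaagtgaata
Fzd1: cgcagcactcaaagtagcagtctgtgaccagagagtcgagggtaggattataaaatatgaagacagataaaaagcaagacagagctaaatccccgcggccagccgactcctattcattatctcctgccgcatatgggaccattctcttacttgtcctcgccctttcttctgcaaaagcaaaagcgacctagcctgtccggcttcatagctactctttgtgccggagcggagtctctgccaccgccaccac
Fzd7: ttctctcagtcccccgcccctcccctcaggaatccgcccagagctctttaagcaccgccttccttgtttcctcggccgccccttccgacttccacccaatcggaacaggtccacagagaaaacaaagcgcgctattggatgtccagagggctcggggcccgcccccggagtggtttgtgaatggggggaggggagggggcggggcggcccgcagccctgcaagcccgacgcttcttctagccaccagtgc
Tcf7l1: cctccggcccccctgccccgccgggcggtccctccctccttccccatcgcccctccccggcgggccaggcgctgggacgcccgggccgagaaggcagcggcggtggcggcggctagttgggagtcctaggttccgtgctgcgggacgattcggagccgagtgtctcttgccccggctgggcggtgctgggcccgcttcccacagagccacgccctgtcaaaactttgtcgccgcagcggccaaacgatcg

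The letters searched were CTTTGAT or CTTTGAA, the core bound by TCF/LEF proteins, and CCNCACCC, a form of the box bound by KLF proteins, both on either strand. The table held 38 promoters of 31 of the 46 genes, some of them overlapping starts of the same gene. The TCF/LEF letters were in 3 of these 38 (7.89%), those of Dkk1, Wnt11 and Wnt5b, beside 7.48% of all 32851 promoters. The KLF letters were in 12 of the 38 (31.6%), beside 14.9% of all promoters. Counted by gene, they were in 9 of 31, beside 4489 of 27025, since overlapping windows of Lef1 hold the same match. In the printed Lef1 promoter the match ran from position -78 to -71 before the start, and the Sfrp2 promoter and 1 of 3 Wnt5b promoters held the KLF letters too. The other genes with these letters, Dkk2, Ror1, Tcf7l2, Wnt6, Wnt10b and Wnt11, were called in no comparison. Only 8 of the 15 called genes had a promoter in the table, so the letters were not set against the calls. The G and C content was 66.4% in the printed Lef1 promoter and 51.2% in that of Fzd1, and base composition was not matched in the comparison. The sequence matches are a description and do not show binding.

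Across the 15 called genes there were 29 calls, 25 of them on genes with several probe sets. In 24 of those 25 every probe set, dim ones included, ran the same way, the exception being Wnt9a at the Klf4 gate, and in all 11 with 2 or more probe sets at the floor these ran the same way.

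The rest of the pathway was read from lists of further genes, leaving out the 46. Among 27 genes of Wnt secretion and extracellular control, 7 were lower and 1 higher at the Klf4 step (25.9% and 3.70%, against 4.32% and 5.3% of all named genes). The median difference over the list was 0.034, beside 0.014 over all named genes. Rspo3, an R-spondin that strengthens Wnt signals, read 4.95, 7.13, 2.76 and 2.77, a peak on the Oct4+Klf4-negative array like that of Sfrp4, and was at least 18.2-fold lower past the Klf4 gate. Wls, the carrier that brings Wnt proteins to the cell surface, read 8.12, 7.71, 5.96 and 4.13, and was 3.36-fold lower at the Klf4 step and 3.56-fold at the EpCAM step. Serpinf1 was 8.92-fold lower and Gpc3, a glypican, 3.91-fold lower at the Klf4 step. Dkkl1, a Dickkopf-like gene, was 3.14-fold higher there and 3.62-fold higher again at the EpCAM step, where Wif1, a Wnt-binding inhibitor, was at least 3.60-fold higher. At the Oct4 step 2 of the 27 were higher, Rspo3 (4.51-fold) and Apcdd1 (2.75-fold), and 3 lower, among them Igfbp4 (8.63-fold), which is 7.41% and 11.1% against 2.25% and 3.04% of all genes. At the EpCAM step 2 were higher and 1 lower (7.41% and 3.70%, against 1.95% and 1.12%). Of the 27, 17 reached the floor. Over all genes reaching it, 6.88% were lower and 8.44% higher at the Klf4 step, 4.84% and 3.59% at the Oct4 step, and 1.78% and 3.11% at the EpCAM step.

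Of 19 genes of alternative receptors and planar polarity, 2 were higher and none lower at the Klf4 step (10.5% higher, against 5.3% of all named genes and 8.44% of those reaching the floor), and the list median was -0.12. Celsr1, an atypical cadherin of planar polarity in epithelia, was 12.3-fold higher there. At the Oct4 step Celsr2 was higher (3.35-fold) and Nfatc1 and Prickle2 were lower (3.94-fold and 2.13-fold), and at the EpCAM step Nfatc2 was higher (2.05-fold). Between the ends 4 were higher and 5 lower (21.1% and 26.3%, against 7.46% and 6.77% of all named genes). Of the 19, 17 reached the floor, and the shares over all genes reaching it were 11.9% and 10.8%. Celsr1 was 18.4-fold and Nfatc2 6.27-fold higher between the ends, and Prickle1 5.77-fold lower.

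Of 39 genes of the cytoplasmic and nuclear machinery, 2 were higher and 2 lower at the Klf4 step (5.13% each way, against 5.3% and 4.32% of all named genes, with a list median of -0.050). At the Oct4 step 1 was higher and 4 were lower (2.56% and 10.3%, against 2.25% and 3.04%). At the EpCAM step 2 were higher and none lower (5.13%, against 1.95%), and between the ends 4 were higher and 3 lower (10.3% and 7.69%, against 7.46% and 6.77%). Of the 39, 34 reached the floor. Over all genes reaching it, the shares higher and lower were 8.44% and 6.88% at the Klf4 step and 3.59% and 4.84% at the Oct4 step. They were 3.11% and 1.78% at the EpCAM step and 11.9% and 10.8% between the ends. Ctnnb1, beta-catenin itself and likewise named after its values were seen, read 11.07, 11.15, 10.91 and 10.87. Jup, plakoglobin, a relative of beta-catenin that is also a desmosome protein, read 6.70, 4.36, 6.90 and 8.22, and was 5.05-fold lower at the Oct4 step, 5.79-fold higher at the Klf4 step and 2.49-fold higher at the EpCAM step. Dact3 was 2.40-fold lower at the Klf4 step and Nkd2 2.93-fold higher.

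Of 34 further genes known as Wnt targets in one tissue or another, 6 of which are also in the lists above, 5 were lower and 1 higher at the Klf4 step (14.7% and 2.94%, against 4.32% and 5.3% of all named genes). Ccn4 was lower by 7.40-fold, the membrane ubiquitin ligase gene Rnf43 by at least 3.20-fold and Twist1 by 2.14-fold, and Bmp4 was 2.83-fold higher. At the Oct4 step 3 were higher and 4 lower (8.82% and 11.8%, against 2.25% and 3.04%), with Nrcam, a neural adhesion gene, at least 23.7-fold higher and Ccn5 4.15-fold lower. At the EpCAM step 3 were lower and none higher (8.82% lower, against 1.12%), with Zeb1, a mesenchymal regulator, 15.2-fold lower. Sp5, Sp8, Cdx1, Cdx2, Cdx4 and Lgr5 lay in the background on every array. Rnf43 and Apcdd1, among the lower genes at the Klf4 step, are also counted as lower in the list of secretion and extracellular control. Apcdd1 is likewise higher in both lists at the Oct4 step. Of the 34, 24 reached the floor. Over all genes reaching it, 6.88% were lower and 8.44% higher at the Klf4 step, 4.84% and 3.59% at the Oct4 step, and 1.78% and 3.11% at the EpCAM step. Many genes of this list also answer to other signals, and the median of the list was 0.022 at the Klf4 step.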

How the data were processed

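Expression was measured on 4 Affymetrix arrays, 1 per sorted fraction, as groups given by the cell type label of each sample. The authors deposited 1 log2 level per probe set and array, made with RMA, per the submitters' processing notes. Its version is one detail the sources used here do not give. RNA came from fixed cells (RecoverAll kit) and was amplified with the Ovation Pico WTA kit, per the labels' protocols, steps that can change a transcript's level according to its integrity. Values ran from 1.31 to 14.4.

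Of 45101 probe sets 64 were controls. Genes were named through the platform annotation: 34945 probe sets had 1 symbol, 932 several (not used) and 9160 were unlisted there. RefSeq (GRCm38.p6) held 34741 of the first and changed 0 symbols. The brightest probe set stood for a gene, giving 18193 genes, 11429 of them reaching the floor. Differences and folds were computed in Python 3.11.15 with pandas 2.3.3. Simulated data with known changes served to check the size rule. Their noise was the probe set scatter, and the changes were planted only in genes well above the floor. The check thus does not cover genes near the floor or variation between cultures or sorts. The members and gene lists were chosen with earlier results of these data known. Genes were named by a rule: every member, and up to 4 genes of each list per comparison past the size rule, those with the largest difference. Alternatives were averaging probe sets, leaving out probe sets marked _s_, _x_ or _a_, a floor at the 75th percentile or none, a 3-fold size rule and centring each array on its gene median. Wnt10b, Ctnnb1 and, at the Klf4 step, Wls, Dkkl1, Apcdd1, Dcn and S100a4 fall outside the naming rule and were named after their values were seen. Also outside it are some of the neural markers named at the Klf4 step, and list genes named as below the floor or in the background. The KLF letters were added after the data were seen.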

Additional observations from a re-analysis of the deposited data

How the results depend on the processing

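With 1 array per fraction, the limits below concern processing and say nothing of variation between cultures or sorts. Averaging the probe sets of a gene left 1 Wnt gene higher at the Oct4 step in place of 2, and 0 lower at the EpCAM step in place of 2. With the floor at the 75th percentile the counts were 0 higher and 0 lower at the Oct4 step, 4 lower at the Klf4 step in place of 8 (Fzd1, Fzd2, Sfrp2 and Wnt9a), 1 lower at the EpCAM step and 4 lower between the ends in place of 9. Without a floor 1 gene, Wnt10b, was higher at the EpCAM step in place of 0. With a 3-fold rule the counts were 1 higher and 0 lower at the Oct4 step and 0 lower at the EpCAM step. The median of the members at the Klf4 step was -0.32 over the 27 reaching the floor, in place of -0.057 over all 46. The other counts and medians of the 46 genes stayed within 1.5 times or within the probe set scatter. At the Klf4 step centring the arrays added Fzd4 to the lower genes, 9 in place of 8. Averaging probe sets gave 6, which gained Fzd4 and lost Axin2, Fzd8 and Wnt5a. None of the 29 calls changed sign under the alternatives run, 24 of them differed by more than the probe set scatter when probe sets were averaged, and Wnt5b had no probe set left when marked ones were left out. Of 32 counts of the pathway lists, recomputed as an addition made after seeing the data, 16 moved by more than 1.5 times with the 3-fold rule, 14 with the higher floor, 10 with averaged probe sets, 7 without marked probe sets, 2 with centring and 0 without a floor. The cause was not tested. No paired analysis was possible because each group holds 1 array.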
